A study of Cricetulus griseus with 4 samples.

Results

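RNA of RT210B, a clone labelled as chromosomally stable, was hybridised against RNA of unstable mixture 1, a pool of the clones LS12 and 10-107-9 in equal amounts, both of which carry the label unstable. The comparison rests on 2 of the 4 two-channel arrays of the study, chosen by their titles, with RT210B in channel 1 and the pool in channel 2. The RNA was total RNA of Chinese hamster (Cricetulus griseus) cells, and the labels give no treatment, passage or time for either side. The stable side is 1 clone and the unstable side a pool of 2, so a ratio averages over LS12 and 10-107-9 and cannot be assigned to either. Each array holds 1152 probes. Genes could be named on 350 of these probes, each with 1 gene symbol, which stand for 347 genes.

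Chromosomal instability is the lasting tendency of a cell population to gain, lose or rearrange chromosomes over many divisions. It can follow exposure to ionising radiation, where new rearrangements appear in the descendants of irradiated cells long after the dose. Double-strand break repair, the checkpoints that hold a damaged cell before mitosis, chromatin state and programmed cell death all bear on whether rearranged cells arise and survive. Clones named in this way are known, as background that the labels do not state, from work on radiation-induced instability in a hamster line carrying a human chromosome 4.

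All values below are log2 ratios between RT210B and mixture 1, so that 1 unit is a 2-fold ratio, after each array's median over probes was subtracted. The labels do not settle which of them is the numerator. A gene is therefore placed on the positive or the negative side of the array's middle probe, and neither RNA is named as the higher one. The subtracted medians were -0.12 on replicate 1 and -0.22 on replicate 2. The SD over probes was 1.14 and 1.05, and the arrays correlated at r = 0.694 over all 1152 probes and 0.686 over the 350 named ones, a description across probes that share their arrays. On 77.8% of probes both arrays had the same sign, and the median gap between them was 0.50. The labels do not state whether separate cultures were used for the replicates, so p-values cover only how far these arrays differ, which may be technical variation. No array with the channels exchanged was used, so a channel effect and a difference between RT210B and the mixture cannot be told apart. Of the 347 genes, 306 have a hamster gene of the same symbol in RefSeq's CriGri-PICRH-1.0 annotation. ZNF135, ZNF347, NID1, MST1L, ID4, GAS1, TERC, ATM and SMARCA2 are among the 41 without one. Of 40 markers of fibroblast, epithelial, endothelial, blood, neural, muscle and ovarian cells, 2 could be named on the array (CDH5 and S100B), so the cell type behind the label could not be checked.

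The ratios were spread widely around the middle probe. Of the 1152 probes, 272 (23.6%) were at least 2-fold from the middle probe with the same sign on both arrays, 162 (14.1%) on the positive side and 110 (9.55%) on the negative side. Among the 350 named probes the count was 85, or 24.3%, with 53 positive and 32 negative. In limma with Benjamini-Hochberg adjustment over all probes, 486 (42.2%) had an adjusted p under 0.05, 269 positive (23.4%) and 217 negative (18.8%). Of the named probes 152 passed, or 43.4%, 87 positive and 65 negative. Named and unnamed probes thus passed in similar shares, with 41.3% for the 794 unnamed ones. Of the 309 named probes with a hamster gene of the same symbol 134 passed. A similar share, 18 of 41, passed among those without one.

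The limma count was not stable, and it is given here as a size ranking more than as a test. With 2 arrays a probe has 1 residual degree of freedom, and the spread is then set almost wholly by limma's prior, which was estimated at 124 degrees of freedom. The SE of a probe lay between 0.390 and 0.422 for all probes, so a probe passed when its mean lay about 0.913 to 0.979 or more from 0, whatever the agreement of its arrays. Without centring the prior fell to 2.74 degrees of freedom and no probe had a limma adjusted p under 0.05, although 539 had an unadjusted p under 0.05 and 506 an adjusted p under 0.10. The count was also 0 with the first spot of each pair alone, with the second spot alone and after removal of a trend of the ratio on the difference between duplicate spots (487, 428 and 355 probes at an unadjusted p under 0.05 in limma). No gene's call therefore held in every setting, and "passed" below refers to limma on the centred means of duplicate spots alone. The values on the arrays and the 2-fold rule do not depend on this prior. In limma with all spots and duplicateCorrelation, 22 of the 211 probes covered by the rule for naming genes lost their call. GTF3C1, EIF1, NTRK3, MEIS2, MMP15, CASP10, LGMN, XIST and SYK were among them.

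A set of 25 named genes was at least 2-fold on both arrays, with 1 sign, in all 6 settings that keep every probe and both arrays. These settings are the centred means of duplicate spots, no centring, arrays scaled to 1 spread, the first spot alone, the second spot alone, and the removed trend. The set was drawn up after the values were seen and has no test. It holds 6 positive and 19 negative genes, against 53 and 32 by the same rule in the first setting. Over all 1152 probes 80 met it, 21 positive and 59 negative. Without centring and with the trend removed, the split over all probes leaned to the negative side, so both counts depend on the settings chosen. A setting limited to spots within 0.5 of each other, centred again, is not among the 6. There COL11A2 had a mean of 0.95, MEIS1 of 0.72, CYP51A1 of -2.45 and ZMYM2 of -2.24. All other genes of the 25 were dropped in it.

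**Figure D1:**
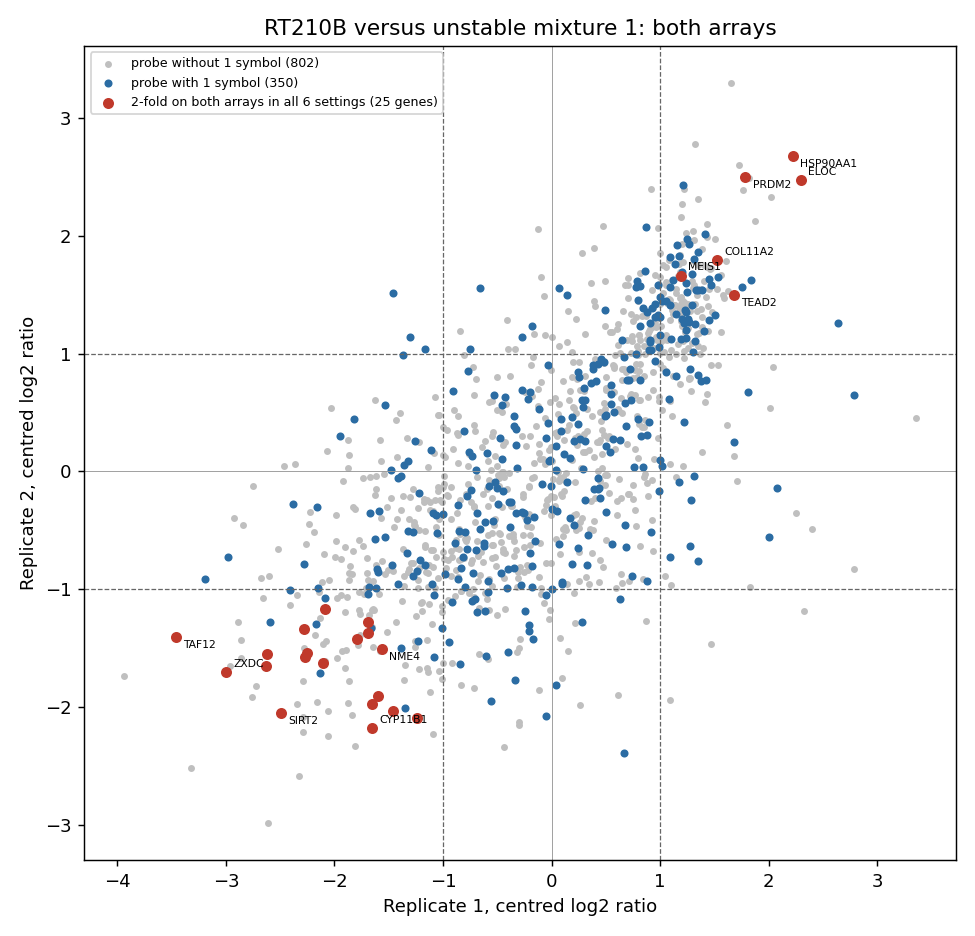
Centred log2 ratio of each of 1152 probes on replicate 1 (x axis) and replicate 2 (y axis), with dashed lines at 2-fold. Grey points lack a single symbol, blue points are the 350 named probes, and red points are the 25 genes that were 2-fold on both arrays in all 6 settings, 11 of them labelled.

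On the positive side, HSP90AA1 encodes the stress-inducible cytosolic HSP90 chaperone and lay at 2.22 and 2.68 on the arrays, with a mean of 2.45 or 5.46-fold. Its smallest size on any array in any of the 6 settings was 2.06. ELOC, elongin C of the cullin ubiquitin ligases, lay at 2.30 and 2.47 (mean 2.39). PRDM2, a histone H3 methyltransferase, lay at 1.79 and 2.50, but its duplicate spots were far apart: the mean was 1.42 from the first spot and 2.80 from the second. The next named gene on the positive side, HYAL3, had a mean of 1.95, and from the first spot alone it lay above PRDM2, at 2.13. The fibrillar collagen gene COL11A2 (1.52 and 1.79), TEAD2, a DNA-binding partner of the Hippo effector YAP (1.68 and 1.49), and MEIS1, a homeobox cofactor of HOX proteins (1.19 and 1.66), complete the positive side. COL11A2 was close to the limit, with a smallest size of 1.00.

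On the negative side TAF12, a histone-fold subunit of TFIID, had the largest mean at -2.43 (5.40-fold), with -3.46 on replicate 1 and -1.40 on replicate 2. SIRT2, a tubulin and histone deacetylase, was more even between the arrays at -2.49 and -2.05, and so was CYP11B1, the enzyme of the last step to cortisol, at -1.65 and -2.18. The mean of SIRT2 was -2.80 from its first spot and -1.81 from its second. UBE2A (-2.63 and -1.65) is the ubiquitin-conjugating enzyme that works with RAD18 on stalled replication forks. SLC26A2, a sulfate transporter, lay at -2.62 and -1.55, and RPA3, the smallest subunit of the single-strand DNA binding complex RPA, at -2.11 and -1.63. ZXDC, a zinc finger regulator, lay at -3.00 and -1.70. The other 12 were CTSO, JAG1, MLLT3, GJA1, IKZF5, CYP51A1, RNF13, TAF1B, PTCH1, NME4, ZMYM2 and CCS, with means of -1.92 to -1.49. CCS is the copper chaperone of superoxide dismutase and NME4 a mitochondrial nucleoside diphosphate kinase. PTCH1 and CCS only just met the rule, with smallest sizes of 1.00 and 1.01. Duplicate spots were far apart for several of these genes. On replicate 1 they differed by 1.74 for TAF12, 1.92 for ZXDC, 1.94 for GJA1 and 1.66 for PTCH1.

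**Figure D2:**
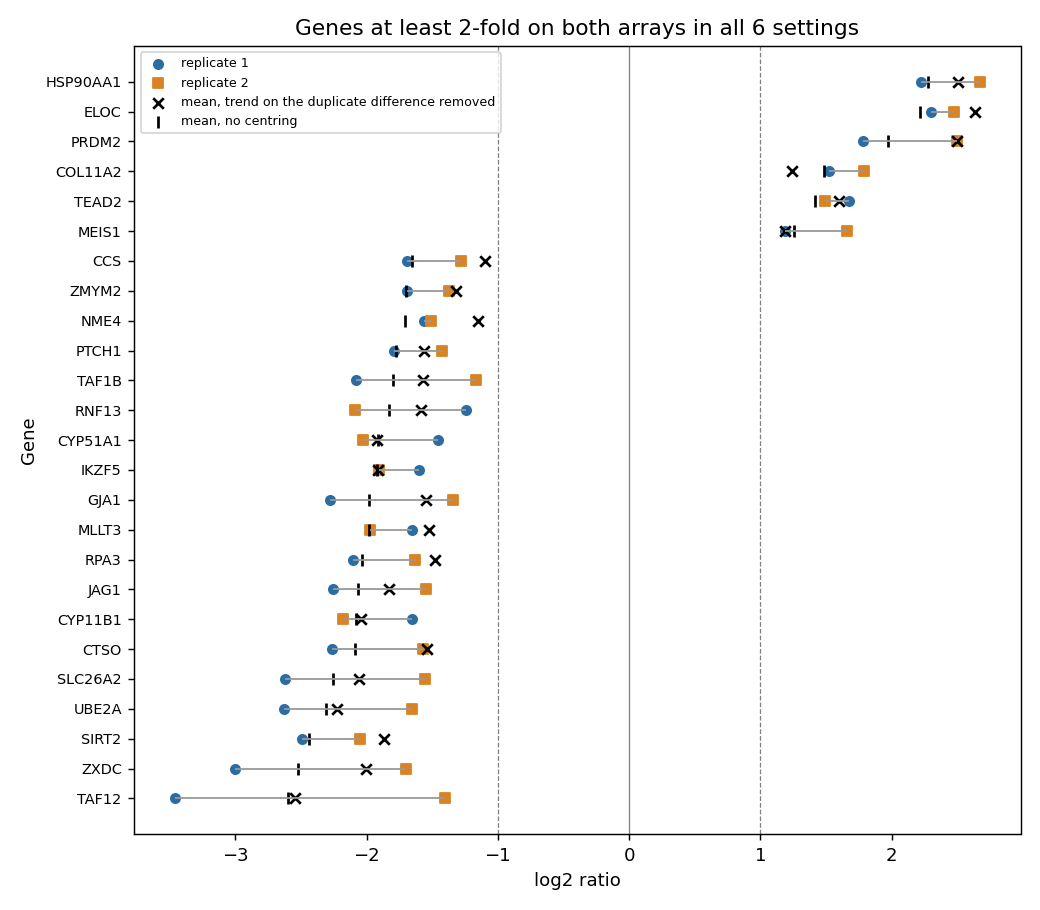
Log2 ratios (x axis) of the 25 genes (y axis) that were at least 2-fold on both arrays in all 6 settings. Circles and squares are the centred values on replicate 1 and replicate 2, a cross is the mean after the trend on the spot difference was removed, and an upright tick is the mean without centring. TAF12 has the widest gap between its arrays, from -3.46 to -1.40.

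Genes of DNA break repair and replication lay on both sides. Of 10 measured members, 4 passed, 2 on each side, and the same 4 were at least 2-fold on both arrays. Over all probes 42.2% passed and 23.6% were 2-fold on both arrays, so the share of this list that passed was near the background. The list's median was -0.32, against -0.03 over all probes. The counts of the lists that follow are to be read against these same shares. The lists were written with earlier results of these data known, so a list's share above the background carries no test. Among named probes outside the lists the shares were lower, at 37.3% and 16.9%. The lists do not hold every measured gene of their theme, so counts and medians describe the listed members alone. Some genes are in more than 1 list and are counted in each, among them UBE2A, UBE2N, ELOC, CDK7, CCNH, BMP1 and CTSO. LIG4, the ligase of non-homologous end joining, lay at 1.24 and 1.13. UBE2N, which builds the lysine-63 ubiquitin chains of damage signalling, lay at 1.14 and 1.76. RPA3 and UBE2A were negative, as given above. The larger partner of RPA3 in the same complex, RPA1, lay at 0.45 and -0.23, with signs that differ between the arrays. The other ligase measured, LIG3 of single-strand break repair, had a mean of -0.80, with -0.58 and -1.02. BRCA1 (-0.61), RAD50 of the MRN complex (-0.43) and the damage kinase ATM (-0.22) did not pass. ATM and RAD50 changed sign between the arrays, with 0.63 and -1.08 for ATM. RFC3 of the clamp loader had the widest gap of the list, at 2.00 and -0.55. Once the trend was removed, LIG4 moved from 1.18 to 0.57. Among genes outside the lists, named after their values were seen, TOPBP1 (0.88 and 1.35) passed. BARD1 (0.28 and 0.61) and TOP3B (0.01 and -0.99), chosen in the same way, did not.

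The listed cell cycle regulators lay mostly below the middle. Of 10 measured members, 5 passed, 1 positive and 4 negative, near the 42.2% of all probes, and the median was -0.79 against -0.03. WEE1, the kinase that keeps CDK1 inactive before mitosis, was the positive one, at 0.99 and 1.16, and its mean fell from 1.08 to 0.55 with the trend removed. The 3 E2F factors were all negative. E2F5, a repressor of the family, lay at -1.35 and -2.01, E2F3, an activator of S phase genes, at -1.17 and -0.79, and the repressor E2F4 at -0.45 and -0.17, where it did not pass. Their dimerisation partner TFDP2 had a mean of -0.90 and an adjusted p of 0.0535 in limma. CDK7 (-0.94 and -1.45) and its cyclin CCNH (-1.60 and -0.85) had like means of -1.19 and -1.22. Both belong to the CDK-activating kinase, which is also part of TFIIH. The replication licensing factor CDC6 (0.33) and the G1 kinase CDK6 (0.23) were near the middle. CDC7, which fires replication origins, lay at -1.82 on replicate 1 and 0.45 on replicate 2. Of the listed members only E2F5 was 2-fold on both arrays. Outside the lists and named after their values were seen, CDC14A (1.00 and 1.31) and GAS1 (0.91 and 1.03) passed on the positive side. CDC45, chosen in the same way, lay at 0.56 and -0.62. Other cell cycle genes off the list were not gathered.

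The 5 measured genes of the apoptosis list were negative on both arrays. The caspase-8 relative CASP10 (-1.33 and -0.69) and BID, which carries the death receptor signal to mitochondria (-0.85 and -1.63), passed. TNFSF10, the death ligand TRAIL (-0.89 and -0.60), the BH3-only protein BAD (-0.18 and -1.42) and the apoptosome caspase CASP9 (-0.39 and -0.47) did not. The median was -0.80 and none was 2-fold on both arrays. Their duplicate spots differed by a median of 0.81, against 0.43 over all probes. Of all probes with a difference from 0.57 to 0.94, only 33.0% had a positive mean, so a shared negative side is not particular to these genes.

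General transcription factors lay on both sides. Of 11 measured members, 8 passed, 3 positive and 5 negative, with 4 at least 2-fold on both arrays and a median of -0.30, against 42.2% and 23.6% of all probes and -0.03. Both TFIID subunits were negative, TAF12 as given above and TAF7 at -1.68 and -0.98. TAF1B, of the promoter selectivity factor of RNA polymerase I, lay at -2.08 and -1.17. Of TFIIH, CDK7 and CCNH passed on the negative side while the core subunit GTF2H3 (-0.76 and 0.17) did not pass. The positive members were ELOC, the TFIIF subunit GTF2F2 (1.10 and 1.13) and GTF3C1, the largest subunit of the RNA polymerase III factor TFIIIC (0.79 and 1.62). The mean of GTF3C1 was 1.76 from its first spot and 0.57 from its second. BRF1, also of the RNA polymerase III machinery, lay close to the middle at 0.17 and 0.11. The elongation factor TCEA1 lay at 0.24 and 0.40.

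All 3 measured genes of the chaperone list lay on the positive side and passed. Beside HSP90AA1, DNAJB1, the HSP40 partner of HSP70 in the heat shock response, lay at 1.53 and 1.65. HSPA9, mitochondrial HSP70, lay at 2.78 and 0.65. Its mean of 1.72 rests mostly on replicate 1, and its spots on replicate 2 differed by 2.43. The adjusted p of HSPA9 was 0.141 in limma with all spots and duplicateCorrelation.

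In the ubiquitin list, 4 of 6 probes passed, 2 on each side, and the same 4 were 2-fold on both arrays. ELOC and UBE2N were positive, and UBE2A and CAND2, a regulator of cullin assembly (-1.23 and -1.44), were negative. UBE2R2, an E2 enzyme of the SCF ligases, was on 2 probes with means of 0.45 and 0.41, and neither passed.

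Among the listed chromatin regulators 6 of 12 passed, 2 positive and 4 negative, and the same 6 were 2-fold on both arrays, against 42.2% and 23.6% of all probes. The median was -0.72 and the duplicate spots of this list differed by a median of 0.98. PRDM2 and RBBP4, the histone-binding subunit of several deacetylase and methyltransferase complexes (1.23 and 1.37), were positive. SIRT2, MLLT3, a reader of acetylated histone H3 (-1.65 and -1.97), the Polycomb protein PHC2 (-2.17 and -1.29) and XIST, the RNA that coats the inactive X chromosome (-1.01 and -1.33), were negative. The mean of XIST was -0.54 from the first spot and -1.86 from the second. Its adjusted p was 0.113 in limma with all spots and duplicateCorrelation. NFRKB of the INO80 complex (-0.71), the acetyltransferase KAT6A (-0.74) and PHF1, a Polycomb partner (-0.89), did not pass. The remodelling ATPase SMARCA2 lay at 0.74 and -0.88. SETD2 (1.19 and 1.13) passed and Phc1, a relative of PHC2 (0.84 and 0.04), did not. SETD2 is outside the lists, and Phc1 was not matched to them, where letter case counted. Both were named after their values were seen. TERT, the telomerase protein, lay at 0.27 and 0.28, and the telomerase RNA TERC, outside the lists and named after its values were seen, at 0.70 and 0.77. Neither passed.

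Zinc finger and homeobox factors formed the largest list, with 23 measured members and a median of 0.02. Of these, 10 passed, 7 positive and 3 negative, and 6 were at least 2-fold on both arrays. The zinc finger genes ZNF135 (1.83 and 1.63), ZNF131 (1.16 and 1.92) and ZNF347 (1.47 and 1.58) were positive and ZXDC was negative. Its relative ZXDB lay at 0.33 and -0.79. ZNF135, ZNF347 and ZXDB have no hamster gene of the same symbol. The homeobox relatives MEIS1 and MEIS2 lay on opposite sides, with means of 1.43 and -1.33. MEIS2 lay at -2.38 on replicate 1 but at -0.28 on replicate 2, so its size rests on 1 array. The MEIS partners PBX2 (-0.79) and PBX3 (-0.33) did not pass. From the HOXD cluster, HOXD3 (1.38 and 1.54) and HOXD8 (0.91 and 1.26) were positive, although the spots of HOXD3 differed by 1.69 and 1.36. POU4F1, a sensory neuron factor, lay at -2.16 and -0.30.

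**Figure D3:**
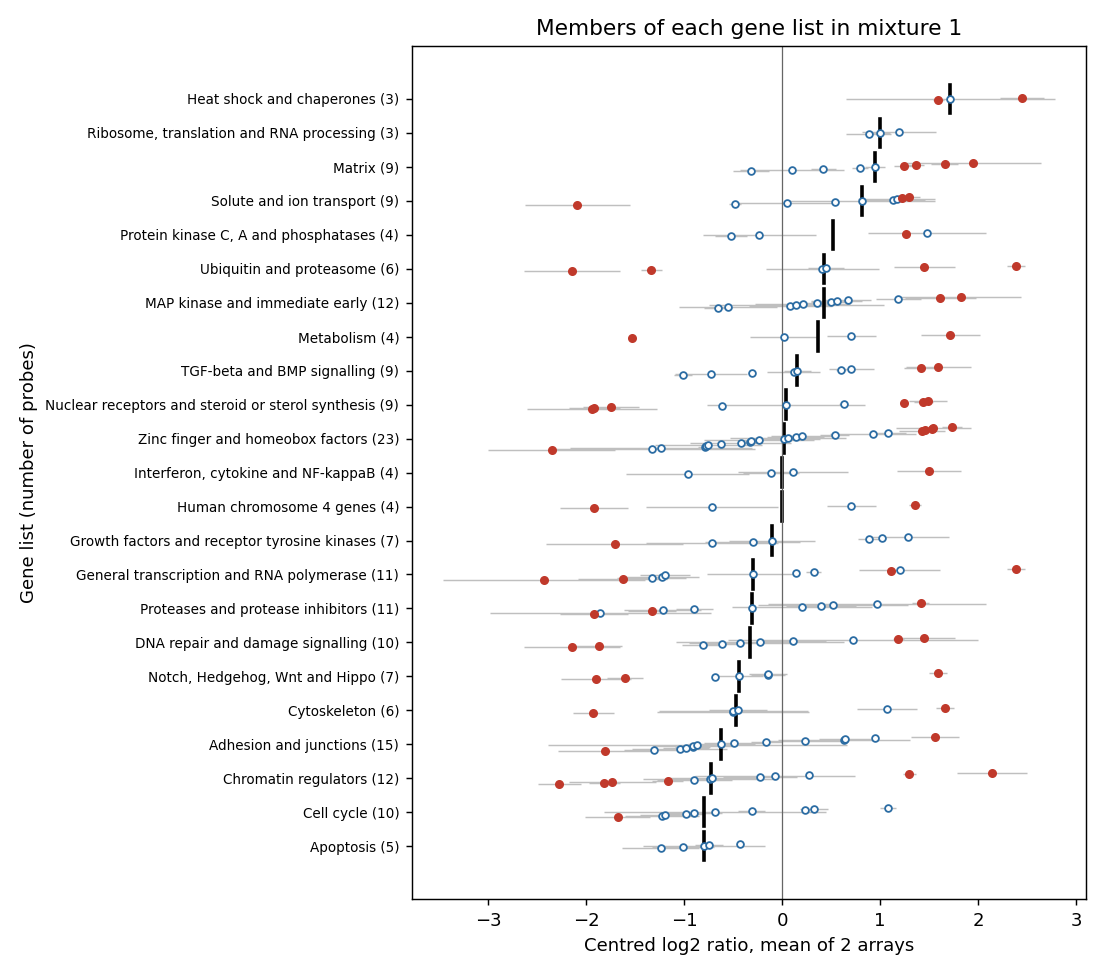
Centred log2 ratio, mean of 2 arrays (x axis), of the members of each gene list (y axis, with the number of probes). Each point is a probe and each grey line joins its 2 arrays. Filled red points were at least 2-fold on both arrays with 1 sign, open blue points were not, and the black bar is the list's median, from -0.80 for apoptosis to 1.72 for chaperones.

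In TGF-beta and BMP signalling, 3 of 9 members passed, 2 positive and 1 negative, with a median of 0.16 and closely agreeing spots (median difference 0.24). The inhibitory SMAD7 lay at 1.26 and 1.93, while the other inhibitory SMAD, SMAD6, lay at -1.09 and -0.36 and did not pass. The ligand GDF10, a BMP3 relative, lay at 1.24 and 1.60. The common mediator SMAD4 (0.71) and the BMP mediator SMAD5 (0.60) were positive on both arrays and did not pass. The targets ID1, ID2 and ID3, inhibitors of basic helix-loop-helix factors, had means of 0.16, 0.12 and -1.01, and of these ID3 passed. ID4 of the same family, outside the lists and named after its values were seen, lay at 1.12 and 1.63. The protease BMP1, which cleaves procollagen and chordin, lay at -0.27 and -0.35.

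Of 7 genes of the Notch, Hedgehog, Wnt and Hippo pathways, 3 passed and were also 2-fold on both arrays. The Notch ligand JAG1 (-2.26 and -1.54) and the Hedgehog receptor PTCH1 (-1.79 and -1.42) were negative and TEAD2 was positive. SMO, the signal transducer that PTCH1 holds inactive, lay at -0.70 and -0.67 and did not pass. LFNG, a glycosyltransferase that modifies Notch, lay at -0.19 and -0.69, and the Wnt antagonists SFRP1 and SFRP4 had means of -0.15 and -0.14.

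MAP kinase and immediate early genes had a median of 0.43, and 3 of 12 passed, all positive, a smaller share than the 42.2% of all probes. RPS6KA1, the ERK-activated kinase RSK1, lay at 1.21 and 2.43 with spots that differed by 0.12 and 0.03. ETS2, an ERK-responsive transcription factor, lay at 1.25 and 1.97, and the atypical kinase MAPK6 at 0.96 and 1.42. The stress kinase kinases MAP2K4 (0.56) and MAP2K6 (-0.66) lay on opposite sides and did not pass. The phosphatase DUSP5 (0.67) and the AP-1 member FOSB (0.50) did not pass. IER2 lay at -0.75 and 1.04, with spots up to 2.98 apart.

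Nuclear receptors and steroid or sterol enzymes gave 6 passing probes of 9, 3 on each side, all 2-fold on both arrays. ESR2, oestrogen receptor beta (1.34 and 1.54), the receptor coactivator SRA1 (1.29 and 1.68) and the corepressor NRIP1 (1.22 and 1.26) were positive. NR2F1, the orphan receptor COUP-TFI (-2.60 and -1.28), CYP51A1, a demethylase of cholesterol synthesis (-1.46 and -2.03), and CYP11B1 were negative. ESR1, oestrogen receptor alpha, was on 2 probes that lay on opposite sides, 1 at 0.67 and 0.58 and the other at -0.62 and -0.61. Neither passed. The spots of the first probe differed by 0.38 and 1.07 and those of the second by 1.47 and 1.00. The mean of the second was -0.02 from its first spot and -1.27 from its second. These probes give no direction for ESR1.

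The proteases had 6 of 11 past the threshold, 2 positive and 4 negative. The lysosomal cathepsins CTSO (-2.27 and -1.57) and CTSZ (-2.98 and -0.72) and the lysosomal legumain LGMN (-1.61 and -0.83) were negative, as was the membrane protease MMP15 (-1.09 and -1.58). MMP14, another membrane-type matrix protease, had a mean of -0.89 and an adjusted p of 0.0541 in limma. ECE1, which makes endothelin, was positive on both arrays with a mean of 1.42. A further cathepsin, CTSF, passed with a mean of 0.97 although it lay at 2.08 on replicate 1 and at -0.14 on replicate 2. It was the only named probe to pass with opposite signs on the arrays, and its spots on replicate 2 differed by 2.81.

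Matrix genes lay mostly above the middle. Of 9 measured members, 5 passed, all positive, 4 were at least 2-fold on both arrays, and the median was 0.95. Both chains of type XI collagen were positive, COL11A2 as above and COL11A1 at 1.14 and 1.34. The basement membrane genes NID1, nidogen (1.45 and 1.29), and LAMA4, a laminin chain (1.05 and 0.84), passed, while the basement membrane proteoglycan HSPG2 lay at -0.50 and -0.14. HYAL3, of the hyaluronidase family, lay at 2.64 and 1.26. COL6A3 (0.79), the small proteoglycan BGN (0.42) and COL2A1 (0.10) did not pass, and COL2A1 changed sign between the arrays. The duplicate spots of this list agreed closely, with a median difference of 0.26. Probes with the closest spots lay mostly on the positive side over the whole array, as given below. In the setting limited to close spots and centred again, the means were 0.95 for COL11A2, 0.66 for NID1 and 0.53 for COL11A1. There LAMA4 lay at 0.24, COL6A3 at 0.08 and BGN at -0.29. With the trend removed NID1 lay at 0.86, against 1.37 before.

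In the adhesion and junction list 7 of 15 probes passed, 2 positive and 5 negative, and 2 probes were 2-fold on both arrays. GJA1, connexin 43, was on 2 probes that were both negative, 1 at -2.28 and -1.34 and the other at -1.53 and -0.56. A second connexin, GJB1, lay at -1.21 and -0.75. The vitronectin receptor chain ITGAV lay at -1.62 and -0.99, and the other integrin chains ITGA7 (-0.91) and ITGA9 (-0.49) did not pass. The cadherins lay on both sides: CDH11 was positive (0.96 and 0.94), CDH3 negative (-0.73 and -1.10), and CDH2 (-0.62), CDH5 (0.24), CDH6 (0.64) and CDH8 (0.64) did not pass. CD99L2, a leukocyte adhesion protein, lay at 1.31 and 1.81. The polarity scaffold DLG5 had the widest gap of any named gene in a list, at 0.66 and -2.39.

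Of 6 cytoskeleton genes 3 passed. LIMK1, which inactivates cofilin (1.75 and 1.56), and the actin-binding calponin CNN3 (1.37 and 0.77) were positive. ADD3, which caps actin and binds spectrin, was negative at -2.13 and -1.71, with spots that differed by 1.34 and 2.04.

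Among receptors and their ligands, 3 of 7 passed. The neurotrophin receptors NTRK2 (0.99 and 1.06) and NTRK3 (0.86 and 1.70) were positive, although the spots of NTRK3 differed by up to 2.38. The ephrins had unlike values: EFNB2 passed at -2.40 and -1.01, EFNB1 had a mean of -0.30 and EFNB3 of 0.89. Of the 4 kinases and phosphatases PRKCH, protein kinase C eta (0.87 and 2.08), and SYK (1.26 and 1.27) passed. The spots of SYK differed by 1.72 and 1.19, its mean was 1.97 from the first spot and 0.50 from the second, and its adjusted p was 0.115 in limma with all spots and duplicateCorrelation. Of the 4 interferon and cytokine genes, IRF1 (1.17 and 1.83) was positive and STAT4 (-1.59 and -0.33) negative, and both passed.

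Solute carriers, channels and pumps had a median of 0.81, with 4 positive and 1 negative of 9 past the threshold. The water channel AQP1 (1.40 and 1.19) and the vacuolar proton pump subunit ATP6V1A (1.24 and 1.20) were 2-fold on both arrays. ATP6V1C1, a second subunit of that pump, outside the lists and named after its values were seen, lay at 1.24 and 1.52. SLC17A2 (1.17) and SLC16A4 (1.13) also passed, and SLC26A2 was the negative member. The channel AQP7, likewise outside the lists and named after its values were seen, lay at -0.25 and -0.35 and did not pass. The translation initiation factors EIF1 (0.81 and 1.57) and EIF1AX (0.91 and 1.10) passed, and the ribosomal gene RPL31 (0.65 and 1.12) did not. The mean of EIF1 was 1.80 from its first spot and 0.53 from its second. In metabolism MAT2A, which makes S-adenosylmethionine (1.41 and 2.02), was positive and NME4 negative, while the thymidine kinase TK2 lay at -0.33 and 0.36.

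The 4 measured genes of human chromosome 4 did not share a side. TACC3, a spindle protein, lay at 1.30 and 1.42, CTSO was negative as above, HPGD, which inactivates prostaglandins, lay at 0.46 and 0.95, and the receptor KIT at -1.38 and -0.04. The list's median was 0.00.

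Of the 166 measured genes outside the lists, 62 passed, or 37.3%, 36 positive and 26 negative, and 28 (16.9%) were 2-fold on both arrays. Those among the 30 largest positive named values were PDAP1 (1.61), DNASE1L1 (1.54), the mitochondrial ribosomal gene MRPL4 (1.45), MST1L (1.45) and the keratin KRT4 (1.43). On the negative side they were BLZF1, a Golgi protein (-2.05), IKZF5, an Ikaros family member (-1.75), the ubiquitin ligase RNF13 (-1.66), ATXN1 (-1.58), MTDH (-1.57), FOXO3, a forkhead factor of stress responses (-1.53), ZMYM2 (-1.53), the coatomer subunit ARCN1 (-1.49) and CCS (-1.49). FOXO3 had close spots on both arrays, with differences of 0.15 and 0.04, but lay at -2.28 and -0.79.

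Agreement between the arrays differed from gene to gene. The 10 named genes with the widest gaps differed by 2.22 to 3.06 between replicate 1 and replicate 2, and 8 of them had opposite signs. They were DLG5, EVPL (-1.46 and 1.52), RFC3, ILK (-1.31 and 1.14), EPS8 (-1.37 and 0.98), BLZF1 (-3.20 and -0.91), CDC7, CTSZ, MLF2 (-1.95 and 0.30) and CRISPLD2 (-0.66 and 1.56). At the other end, 10 genes lay nearest to the middle probe on both arrays, at most 0.26 from it. They were CDK6, BRF1, FLI1, HAGLR, RRAD, RBM38, RBBP6, CDK16, FOXJ1 and CD86.

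The side on which a probe lay moved with the agreement of its duplicate spots. Probes were split into 5 groups of equal size by this difference. In the group with the closest spots (differences up to 0.151, 231 probes) the median ratio was 1.04, and 83.1% had a positive mean. In the next group the median was 0.21, and in the 3 groups with wider differences it lay between -0.41 and -0.37. Among passing named probes, the spots of positive ones differed by a median of 0.111 and 0.195 on the 2 arrays, and those of negative ones by 0.778 and 0.486. Of the 30 largest positive named genes, 19 had spots within 0.5 of each other on both arrays, against 3 of the 30 largest negative. After removal of that trend, 11 of those 30 positive and 25 of those 30 negative genes were at least 2-fold on both arrays. Spot brightness was not used here, and its part in this relation was not tested.

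**Figure D4:**
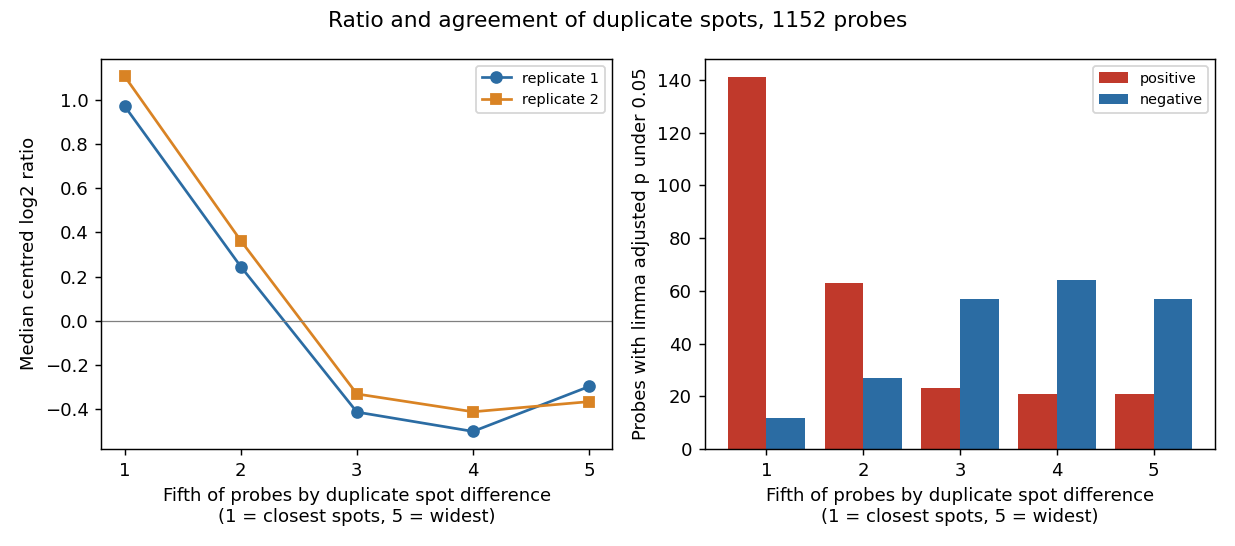
Probes in 5 groups of equal size by the mean difference between their duplicate spots (x axis, closest to widest). The left panel plots the median centred log2 ratio on each array, which falls from 0.97 and 1.11 in the first group to -0.41 and -0.33 in the third, and the right panel the number of probes with a limma adjusted p under 0.05, 141 positive and 12 negative in the first group.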

How the data were processed

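The authors deposited 1 log2 ratio of the channels for each of 2304 spots per array. Per the labels, a normalization factor of 3.8 belongs to replicate 2, and its use, like the dyes, scanner and background correction, is not stated there. Adjacent spots were averaged to 1152 probes, each array's median was subtracted, and the mean of the 2 arrays was tested against 0 with limma 3.58.1 in R 4.3.3 (lmFit, eBayes; Benjamini-Hochberg over all probes, threshold 0.05). RT210B is on both arrays and was not measured apart from the mixture, so its own spread cannot be told apart from that of the mixture. With 2 arrays a permutation test cannot go below p = 0.5. The pairing of spots was checked on the values: paired spots correlated at r = 0.725 and 0.737, unpaired neighbours at 0.066 and 0.003. Symbols come from GEO's platform annotation of human genes, and Phc1 is printed as given there. Cross-species hybridisation was not measured. The steps were tested on simulated data. Members, lists and alternatives were chosen with earlier results of these data known. Genes named in the text were drawn from the 30 largest passing values on each side with 1 sign, the measured list members (those not named enter the counts of their list), genes on 2 probes, and the 10 with the widest and the 10 with the smallest values; others are said to be chosen after their values were seen. The arrays of mixture 2 were not used.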

Additional observations from a re-analysis of the deposited data

How the results depend on the processing

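The limma count of probes past the threshold in mixture 1 (486) was 0 without centring, 0 with the first spot alone, 0 with the second spot alone and 0 after removal of the trend on the spot difference. It was 154 of 495 probes with close duplicate spots, and 312 at an adjusted p under 0.01. It was 466 with scaled arrays, 494 with robust eBayes and 443 with all spots and duplicateCorrelation (375 of them among the 486, 291 positive and 152 negative). The limma prior was 2.05 to 4.97 degrees of freedom in the settings with a count of 0, 3.21 with close duplicate spots, 1.91 with duplicateCorrelation, which has 3 residual degrees of freedom in place of 1, and 124 where 486 passed, so a low prior did not always go with a count of 0. The count of 90 list probes past the threshold was likewise 0 in those 4 settings, and 24 among close duplicate spots. The count of probes at least 2-fold on both arrays of mixture 1 (272) was 276 without centring, with the split turned to 114 positive and 162 negative, and 275 and 279 with a single spot. It was 165 with the trend removed (59 positive, 106 negative) and 84 among close duplicate spots (2 positive, 82 negative), where the arrays were centred again. At 1.5-fold 530 and at 3-fold 41 probes were counted. With 1 array left out there is no test, and 443 to 492 probes were 2-fold on the array kept. Of the 211 probes that the naming rule covers, CTSF was the only passing one to change sign in the settings run, to -0.14 without replicate 1 (2.08 without replicate 2). Between 15 and 26 genes that passed in neither fit changed sign in each of 7 settings. No paired analysis was possible because 1 group of arrays enters the comparison. Signal over background is unknown.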
